A study of Mus musculus with 11 samples.

Results

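The genes of serotonin synthesis and of several gut endocrine peptides were examined in the chromatin of mouse pancreatic endocrine cells. They were chosen by name, as every region or window that the deposited files assign to Tph1, Tph2, Ddc, Slc18a1, Slc18a2, Cck, Gip, Sct, Nts or Cartpt. Of these 10 genes, 9 were among the 31576 gene symbols in the files, and Slc18a1 was not. CUT&Tag, in which an antibody brings a transposase to a histone mark or protein so that nearby DNA is tagged for sequencing, was run on endocrine cells sorted for the red reporter tdTomato. The acetyl mark H3K27ac, found at working promoters and enhancers, and the Polycomb mark H3K27me3, found at repressed genes, were each measured at postnatal day 9 (P9) in 2 Isl1CKO (Isl1loxP/loxP;Neurod1-cre) and 2 Control (Isl1loxP/+;Neurod1-cre) libraries. Each library came from a separate pool of 3 to 4 pancreases and about 20000 sorted cells, from littermates of both sexes on a C57BL/6 background. Both genotypes carried Neurod1-Cre, active where Neurod1 is transcribed, and the Ai14 tdTomato reporter, and Control cells kept 1 allele of Isl1 that the Cre cannot delete. Binding of ISL1, the LIM-homeodomain factor deleted in Isl1CKO, was measured in Control cells at P9 (1 library) and at the embryonic stage E14.5 (2 libraries, deposited as 1 column).

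Serotonin is made from tryptophan in a pair of steps. Tryptophan hydroxylase, encoded by Tph1 in peripheral tissues and by Tph2 mainly in neurons, catalyses the rate-limiting step, and the aromatic amino acid decarboxylase encoded by Ddc completes the synthesis and also makes dopamine. The vesicular monoamine transporters encoded by Slc18a1 and Slc18a2 load the product into secretory vesicles. Rodent beta cells make and store serotonin, and pregnancy raises Tph1 in them through prolactin signalling. Cck (cholecystokinin), Gip (the incretin glucose-dependent insulinotropic polypeptide), Sct (secretin) and Nts (neurotensin) encode hormones of intestinal endocrine cells, and Cartpt encodes the CART peptides of neurons and islet cells.

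The sequence just upstream of the start is shown for the members whose histone mark lay on a start site, together with Gip, the member with the most homeodomain core motifs in this window. Each line gives the 250 bases before a RefSeq start on GRCm38.p6, written along the gene. Capitals mark TAAT, the core bound by homeodomain proteins such as ISL1, and TGACG, the first bases of the cyclic AMP response element, on either strand (ATTA and CGTCA on the other strand). For Tph1, Ddc and Cartpt the start is an inner one, 5160, 7736 and 9496 bases inside the RefSeq gene. RefSeq windows matched 9 of the 10 members, 11 windows in all, and Slc18a1 was the member without one.
Tph1 (chr7:46667378-46667627, minus strand): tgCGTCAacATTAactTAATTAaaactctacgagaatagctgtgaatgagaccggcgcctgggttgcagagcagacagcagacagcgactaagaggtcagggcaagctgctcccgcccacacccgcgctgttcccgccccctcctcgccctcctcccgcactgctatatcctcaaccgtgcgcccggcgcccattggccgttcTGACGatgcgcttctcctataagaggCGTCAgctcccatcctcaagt
Ddc (chr11:11890409-11890658, minus strand): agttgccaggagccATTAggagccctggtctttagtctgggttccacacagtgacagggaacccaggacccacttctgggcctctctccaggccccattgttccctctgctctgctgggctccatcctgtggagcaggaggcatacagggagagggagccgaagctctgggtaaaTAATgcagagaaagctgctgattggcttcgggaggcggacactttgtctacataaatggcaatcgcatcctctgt
Slc18a2 (chr19:59260628-59260877, plus strand): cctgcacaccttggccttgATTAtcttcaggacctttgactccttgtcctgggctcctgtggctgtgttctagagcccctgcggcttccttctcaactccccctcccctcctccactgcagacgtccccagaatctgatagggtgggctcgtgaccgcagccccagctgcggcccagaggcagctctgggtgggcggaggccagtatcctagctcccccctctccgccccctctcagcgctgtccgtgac
Cck (chr9:121495695-121495944, minus strand): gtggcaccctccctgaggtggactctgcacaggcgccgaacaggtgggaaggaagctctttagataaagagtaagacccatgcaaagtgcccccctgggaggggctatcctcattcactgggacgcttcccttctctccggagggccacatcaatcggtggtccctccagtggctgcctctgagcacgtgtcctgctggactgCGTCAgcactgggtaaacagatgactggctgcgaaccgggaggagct
Cartpt (chr13:99900684-99900933, minus strand): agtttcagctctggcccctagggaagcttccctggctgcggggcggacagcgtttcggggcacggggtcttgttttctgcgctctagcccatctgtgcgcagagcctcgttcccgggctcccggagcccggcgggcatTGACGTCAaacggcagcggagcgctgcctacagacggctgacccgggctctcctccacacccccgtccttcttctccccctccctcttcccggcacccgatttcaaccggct
Sct (chr7:141279134-141279383, minus strand): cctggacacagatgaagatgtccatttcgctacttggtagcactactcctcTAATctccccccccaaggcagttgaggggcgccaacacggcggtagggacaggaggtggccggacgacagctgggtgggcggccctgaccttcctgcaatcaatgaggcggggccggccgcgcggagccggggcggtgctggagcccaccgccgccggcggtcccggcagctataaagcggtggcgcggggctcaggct
Gip (chr11:96024295-96024544, plus strand): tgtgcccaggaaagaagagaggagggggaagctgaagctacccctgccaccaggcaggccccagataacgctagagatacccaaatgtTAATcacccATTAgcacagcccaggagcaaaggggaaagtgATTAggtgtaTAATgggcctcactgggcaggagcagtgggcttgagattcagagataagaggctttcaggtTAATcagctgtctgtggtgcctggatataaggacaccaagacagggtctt

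TAAT occurred in 8 of the 11 member windows, against 54.9% of all 32851 windows of the same length. Gip held 5 copies, and the windows of Cck, Cartpt and the outer Tph1 start held none. The longer form TAATG occurred in 4 of 11, against 23.9% of all windows. TGACG occurred in 5 of 11, against 17.8% of all windows. The inner Tph1 window held 3 copies, the one nearest the start 21 bases before it. In Cartpt its copies on both strands overlapped in 1 palindrome that begins 112 bases before the start. The outer Tph1 start, Cck and Nts held 1 TGACG each. The E-box CANNTG, which reads the same on both strands, occurred in 6 of 11 against 66.2% of all windows. TATAAA occurred in 3 of 11, against 12.4% of all windows, and stood 28 bases before the start in Sct and 30 in Tph2. A match is a match of letters and was not tested for binding.

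The H3K27ac file listed 31479 regions, of which 7 belonged to members (3 to Ddc, 2 to Cck and 2 to Sct). The H3K27me3 file listed 20086 regions, of which 9 belonged to members (3 to Tph2, 2 to Cartpt and 1 each to Tph1, Slc18a2, Cck and Gip). Cck was the single member with regions of both marks. Nts appeared only in the ISL1 file, and Slc18a1 has no value here. All 16 regions passed the filter on low counts.

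The maps of listed regions show where these lay. At the Tph1 locus the region was not at the outer gene start but 4943 to 7061 bases inside the gene, over the inner RefSeq start. The first Ddc region likewise covered the inner Ddc start, at 7233 to 8244 bases. Gene lengths of Tph1 (27897 bases) and Ddc (84044 bases) were the same in the files and in RefSeq, so these distances can be set side by side although the genome builds differ. The RefSeq gene of Cartpt was longer than that in the files (11697 against 2603 bases), and its printed window was not placed in the region.

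**Figure D1:**
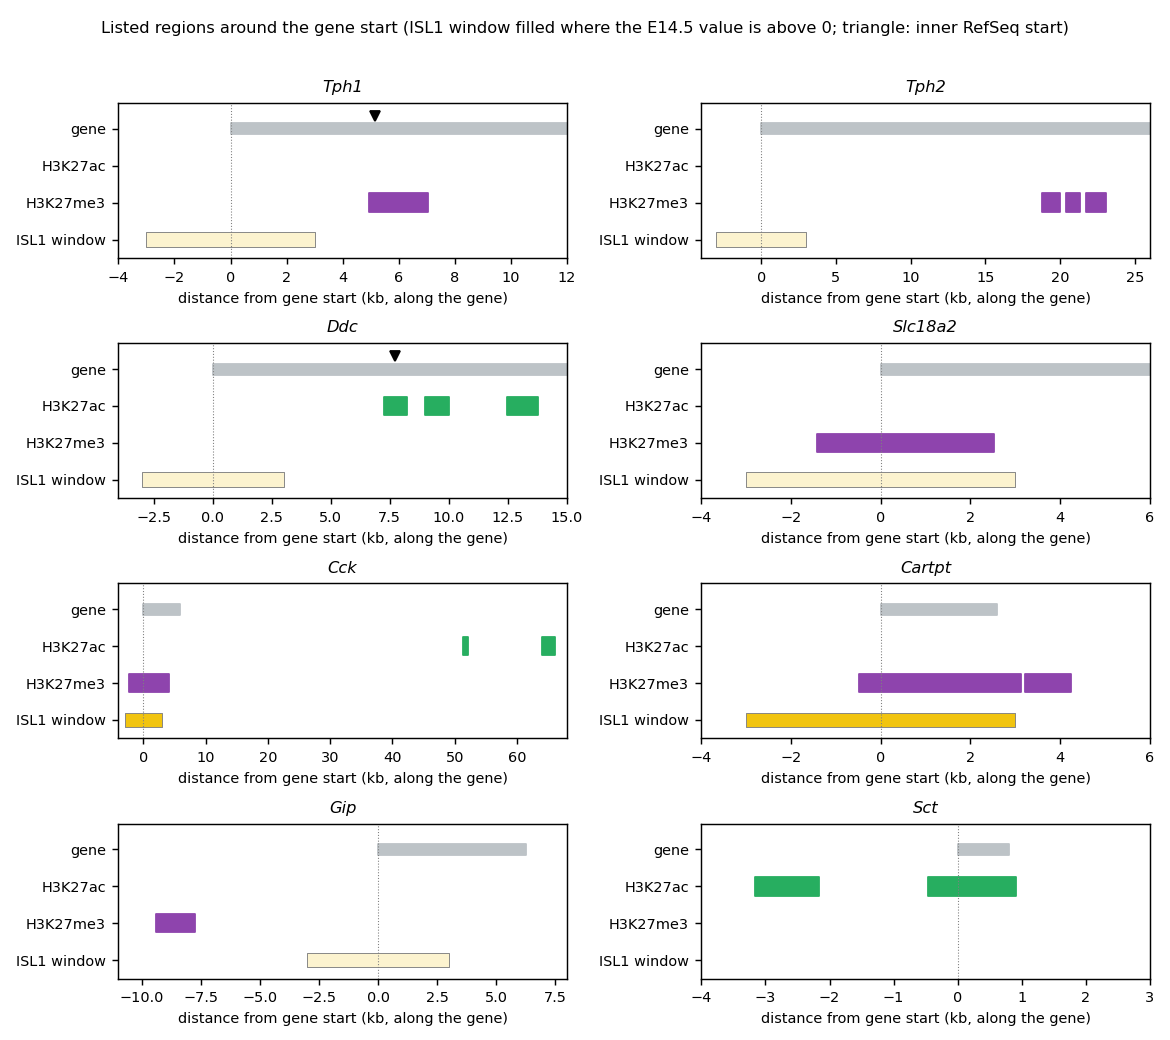
Listed H3K27ac regions (green), H3K27me3 regions (purple) and ISL1 windows (yellow, filled where the E14.5 value was above 0) around the start of 8 members, with distance from the gene start in kb along the gene on the x axis. The grey bar is the gene, cut off at the right edge for long genes, and the triangle is an inner RefSeq start. Regions that the files list under other genes are not drawn. H3K27me3 covered the starts of Slc18a2, Cck and Cartpt, and H3K27ac covered the start of Sct. The Tph1 region and the first Ddc region covered the inner starts, and the other Ddc regions lay farther inside the gene.

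Over the whole series, counts in regions numbered 681047 and 1441926 in the Isl1CKO and 1307049 and 1815511 in the Control H3K27ac libraries, and 2276887 and 2260039 in the Isl1CKO and 1202276 and 1750706 in the Control H3K27me3 libraries. Control replicate 2 of H3K27ac stood apart, with correlations of 0.388 to 0.435 with the other 3 libraries (log2 CPM, the depth-scaled count with TMM factors over the counts in regions), while the others reached 0.751 with each other. H3K27me3 libraries correlated at 0.637 to 0.793. With 2 libraries a genotype, edgeR's quasi-likelihood test with Benjamini-Hochberg adjustment called 0 of 30036 H3K27ac regions (0.0%) and 0 of 19434 H3K27me3 regions (0.0%) at an adjusted p below 0.05. An unadjusted p below 0.05 was found for 1751 (5.83%) and 843 (4.34%). DESeq2 called 29 of 25377 (0.114%) and 123 of 14536 (0.846%), out of the regions to which it gave an adjusted p. The promoter region of Isl1 itself measured 45.6 and 45.7 CPM of H3K27ac in Isl1CKO, against 63.3 and 42.8 CPM in Control. Of its other 6 H3K27ac regions, an intron region 5085 bases from the start measured 7.61 and 2.81 CPM in Isl1CKO, against 19.3 and 21.9 CPM in Control, and the remaining 5 overlapped between genotypes. The labels do not name the deleted exon, so the deletion is not checked by them.

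Of the sorted cells' own markers, 7 of 8 beta cell genes had H3K27ac (Ins2 did not), with summed levels of 330 and 268 CPM in Isl1CKO and 337 and 347 CPM in Control. Of alpha cell genes, 3 of 6 had H3K27ac (Gcg did not), and their sums overlapped between genotypes. Of delta cell genes, 1 of 3 did (Sst did not), in a region not annotated as a promoter. It measured 1.52 and 2.81 CPM in Isl1CKO and 20.8 and 23.6 CPM in Control. The first of these Isl1CKO values is below 4.56 CPM, the level of 3 counts in that library. The PP and epsilon list had 2 of 2, at 25.9 and 32.3 CPM in Isl1CKO and 33.2 and 43.8 CPM in Control. Among other cell types, the acinar list had 1 of 6 genes with H3K27ac (Cpa1), at 18.3 and 21.1 CPM in Isl1CKO and 95.7 and 61.4 CPM in Control. The endothelial list had 2 of 4, at 18.3 and 34.4 CPM in Isl1CKO and 23.2 and 84.4 CPM in Control. The enteric and peripheral neuron list had 3 of 6, at 89.8 and 108 CPM in Isl1CKO and 99.6 and 77.8 CPM in Control, and the immune list had 0 of 4. Summed H3K27ac overlapped between genotypes for the ductal (3 of 5 genes), mesenchymal (2 of 5) and glial (1 of 4) lists. Taken singly, 2 of the 3 ductal genes lay below in both Isl1CKO libraries (background 19.4%), with a list median log2 fold change of -1.77. In the mesenchymal list 1 of 2 lay above (background 18.1%). The delta, acinar, endothelial, mesenchymal and glial lists had no H3K27ac promoter region, and the ductal list had 1.

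Summed H3K27me3 was lower in both Isl1CKO libraries for the beta cell list and for some lists of other cell types. The beta cell list (4 of 8 genes) stood at 739 and 794 CPM in Isl1CKO, against 1006 and 838 CPM in Control. The alpha (4 of 6) and delta (3 of 3) cell lists overlapped, and the PP and epsilon list had 0 of 2. The mesenchymal list (3 of 5 genes) stood at 1761 and 1903 CPM in Isl1CKO, against 2491 and 2409 CPM in Control. For 2 of its 3 genes the level was lower in Isl1CKO with an unadjusted edgeR p below 0.05, against 2.98% of all tested regions. The neuron list (3 of 6) stood at 952 and 925 CPM in Isl1CKO, against 1109 and 1116 CPM in Control, with 1 such gene, and the ductal list (3 of 5) at 57.7 and 49.3 CPM in Isl1CKO, against 67.0 and 59.3 CPM in Control. The acinar (2 of 6), endothelial (1 of 4) and glial (1 of 4) lists overlapped, and the immune list had 0 of 4. Whether these differences take part in any member's difference was not tested, and a change in the share of a cell type cannot be told apart from a change within cells.

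The first comparison asked how H3K27me3 at the serotonin genes differed between Isl1CKO and Control. Tph1 and Slc18a2 measured lower in both Isl1CKO libraries than in both Control libraries, 1 of the 3 Tph2 regions measured higher, and none passed the test. Over all 9 member regions, 0 were called (background 0.0%), 3 had an unadjusted p below 0.05 (1 higher, background 1.35%, and 2 lower, background 2.98%), 1 lay above in both Isl1CKO libraries (background 18.7%) and 2 lay below (background 16.7%). Fitted log2 fold changes of Isl1CKO over Control were positive for 3 and negative for 6, against 52.5% positive over all tested regions. Their median was -0.11, against 0.05 over all regions.

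Tph1 (ENSMUSG00000040046), which encodes the peripheral tryptophan hydroxylase, had 1 H3K27me3 region (chr7:46314900-46317018 on GRCm39, annotated as 5′ UTR). It held 16 and 2 counts in the Isl1CKO libraries, against 20 and 67 counts in Control. Scaled to depth this was 6.84 and 0.850 CPM in Isl1CKO, against 17.6 and 39.4 CPM in Control. Both Isl1CKO libraries were low and the groups did not overlap, although both groups varied widely within themselves and the second Isl1CKO library held fewer than the 3 counts taken as a detection floor. The group values were 3.84 ± 4.23 CPM in Isl1CKO and 28.5 ± 15.4 CPM in Control (SD, n = 2 each). The log2 fold change was -2.88 (SE 1.05), with an unadjusted p of 0.0182 and an adjusted p of 1.00 in edgeR's quasi-likelihood test with Benjamini-Hochberg adjustment, and 0.164 in DESeq2. Leaving out 1 library at a time gave log2 fold changes from -4.97 (without Isl1CKO replicate 1) to -2.06 (without Isl1CKO replicate 2). Per kb, the level was 1.81 CPM in Isl1CKO and 13.4 CPM in Control, and 60.9% of all H3K27me3 regions had a lower Control level per kb.

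The authors' deposited table gave this Tph1 region a log2 fold change of -3.38 with an adjusted p of 4.99e-12. That analysis called 38.8% of all H3K27me3 regions (9.17% higher and 29.6% lower), and its median log2 fold change over all regions was -0.45, which is 0.50 below that of the fit here. For H3K27ac it called 37.0% of regions (27.8% higher and 9.25% lower) and its median was 0.46, which is 0.48 above that of the fit here. Values quoted from it below are to be read against those medians. Its calls covered 4 of the 9 H3K27me3 member regions (1 higher and 3 lower) and 2 of the 7 H3K27ac member regions (both higher).

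Tph2 (ENSMUSG00000006764), the neuronal tryptophan hydroxylase gene, had no mark listed at its start and 3 H3K27me3 regions close together in an intron, 18770 to 23090 bases inside the gene. The farthest from the start (chr10:114997837-114999165) held 35 and 128 counts in Isl1CKO, against 16 and 5 counts in Control, or 15.0 and 54.4 CPM in Isl1CKO and 14.1 and 2.94 CPM in Control. Both Isl1CKO libraries were the higher ones, but the lower of them stood within 1 CPM of the higher Control library. Its log2 fold change was 2.06 (SE 0.94) with an unadjusted p of 0.0477 and an edgeR adjusted p of 1.00. Without Isl1CKO replicate 2 it was 0.84, and without Control replicate 1 it was 3.54. The authors' deposited table gave 1.62 with an adjusted p of 0.00114. The other Tph2 regions overlapped between genotypes, with levels of 10.2 to 36.7 CPM in Isl1CKO and 7.05 to 26.4 CPM in Control and log2 fold changes of -0.17 (SE 0.99) and 0.44 (SE 0.72).

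Slc18a2 (ENSMUSG00000025094), the gene of the vesicular transporter found in neurons and islet cells, had a 3940-base H3K27me3 region across its start (chr19:59247914-59251853, promoter). The levels were 62.8 and 78.6 CPM in Isl1CKO, against 148 and 102 CPM in Control. Each Isl1CKO library stood lower than either Control one. Means were 70.7 ± 11.2 CPM in Isl1CKO and 125 ± 32.4 CPM in Control (SD, n = 2 each), a log2 fold change of -0.82 (SE 0.36) at an unadjusted p of 0.0416 and an edgeR adjusted p of 1.00. It was -0.53 without Control replicate 1, and -1.40 with an adjusted p of 0.000110 in the authors' deposited table. The Control level per kb, 31.8 CPM against 18.0 CPM in Isl1CKO, exceeded that of 91.2% of all H3K27me3 regions.

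The peptide genes Cck and Cartpt had the highest H3K27me3 per kb of the member regions in both genotypes, at their starts, and the genotypes overlapped. The Cck region (ENSMUSG00000032532; chr9:121320625-121327056, promoter) spanned 6432 bases across the start, and 5.56% of H3K27me3 regions were wider than 6000 bases. It held 616 and 577 counts in Isl1CKO, against 347 and 416 counts in Control. The levels were 263 and 245 CPM in Isl1CKO, against 306 and 244 CPM in Control. The genotypes overlapped, the highest library being a Control one. The log2 fold change was -0.11 (SE 0.21; edgeR adjusted p = 1.00). It was 0.0054 when libraries were scaled by total counts. Per kb, Cck stood at 39.5 CPM in Isl1CKO and 42.8 CPM in Control, a Control level above that of 95.1% of all H3K27me3 regions.

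Cartpt (ENSMUSG00000021647) had a 3621-base promoter region (chr13:100034473-100038093) with 348 and 277 counts in Isl1CKO, against 113 and 302 counts in Control. Scaled, these were 149 and 118 CPM in Isl1CKO, against 99.6 and 177 CPM in Control. Both Isl1CKO libraries lay between the 2 Control libraries. Its log2 fold change was -0.06 (SE 0.33; edgeR adjusted p = 1.00), 0.047 with total-count scaling and 0.42 without Control replicate 2. Per kb the levels were 36.8 CPM in Isl1CKO and 38.2 CPM in Control, and the Control level was above that of 93.8% of regions. A smaller region beside it, 3218 bases from the start, measured 7.45 ± 2.68 CPM in Isl1CKO and 13.2 ± 6.23 CPM in Control (SD, n = 2 each), and its groups overlapped.

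Gip (ENSMUSG00000014351) had no mark listed at its start. Its H3K27me3 region lay 7768 bases upstream in intergenic DNA (chr11:95905967-95907603) and held 56 and 27 counts in Isl1CKO, against 10 and 34 counts in Control. The levels of 23.9 and 11.5 CPM in Isl1CKO overlapped those of 8.81 and 20.0 CPM in Control. The log2 fold change was 0.28 (SE 0.87), and it was -0.34 without Isl1CKO replicate 1.

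**Figure D2:**
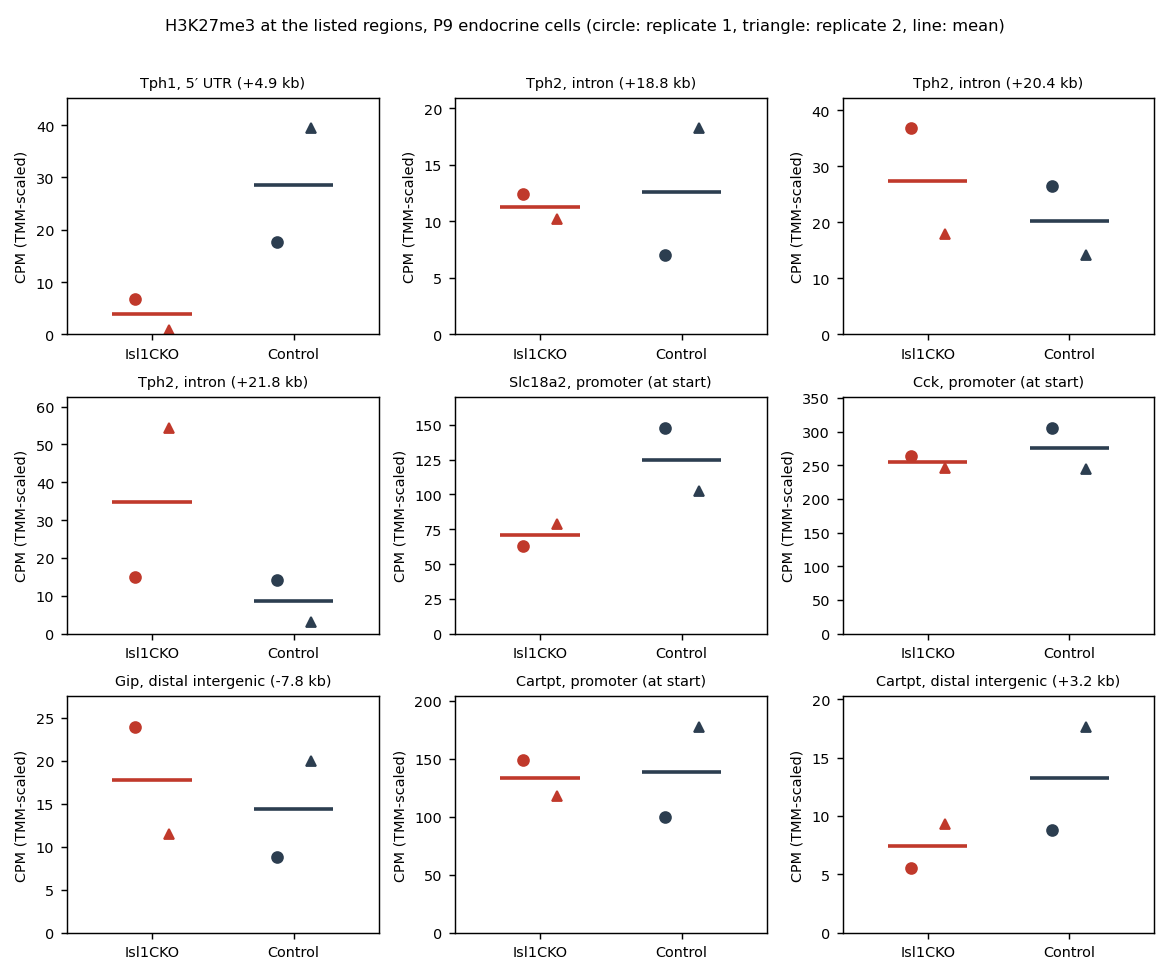
H3K27me3 level (TMM-scaled CPM, y axis) of each library in the 9 member regions, with Isl1CKO in red on the left and Control in dark blue on the right. Circles are replicate 1, triangles replicate 2 and lines the mean of 2 libraries. Tph1 and Slc18a2 have both Isl1CKO points below both Control points, the last Tph2 region has both above, and the other 6 regions overlap.

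The second comparison asked the same of H3K27ac. Among the members only Sct had this mark listed at its start, Ddc had it in the gene, and the regions assigned to Cck lay in another gene. Of the 7 regions, 0 were called (background 0.0%) and 0 had an unadjusted p below 0.05 (background 2.71% higher and 3.12% lower), while 2 lay above (background 18.1%) and 2 below (background 19.4%) in both Isl1CKO libraries. Fitted changes were positive for 4 and negative for 3, against 48.6% positive over all regions, with a median of 0.25 against -0.03.

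Ddc (ENSMUSG00000020182), the decarboxylase gene, had neighbouring H3K27ac regions with measured differences of opposite sign. The region over the inner start (chr11:11839900-11840911, annotated as 5′ UTR) held 3 and 21 counts in Isl1CKO, against 29 and 64 counts in Control. Its levels were 4.56 and 14.8 CPM in Isl1CKO, against 22.4 and 35.1 CPM in Control. Both Isl1CKO libraries were below both Control libraries. Means were 9.66 ± 7.21 CPM in Isl1CKO and 28.7 ± 8.98 CPM in Control (SD, n = 2 each), a log2 fold change of -1.49 (SE 0.79; edgeR adjusted p = 0.867), from -2.64 without Isl1CKO replicate 2 to -0.96 without Isl1CKO replicate 1. The authors' deposited table gave -0.99 with an adjusted p of 0.0646. Per kb, the level was 9.55 CPM in Isl1CKO and 28.4 CPM in Control, the Control level being above that of 67.2% of all H3K27ac regions.

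The next Ddc region, in an intron 8974 bases from the start (chr11:11838143-11839170), held 19 and 50 counts in Isl1CKO, against 30 and 16 counts in Control. Here the levels of 28.9 and 35.1 CPM in Isl1CKO were both above those of 23.2 and 8.77 CPM in Control. The log2 fold change was 1.02 (SE 0.71; edgeR adjusted p = 0.901), 0.47 without Control replicate 2 and 1.87 without Control replicate 1. In the authors' deposited table it was 1.54 with an adjusted p of 0.00139. The third region, over an exon and also within 1700042O10Rik (chr11:11834386-11835692), held 9 and 22 counts in Isl1CKO, against 27 and 55 counts in Control. Its levels were 13.7 and 15.5 CPM in Isl1CKO, against 20.8 and 30.1 CPM in Control, again with no overlap, and a log2 fold change of -0.80 (SE 0.72; edgeR adjusted p = 0.922).

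Sct (ENSMUSG00000038580), the secretin gene, had H3K27ac across its start (chr7:140858138-140859516, promoter), with 34 and 91 counts in Isl1CKO, against 37 and 62 counts in Control. The levels were 51.7 and 63.9 CPM in Isl1CKO, against 28.6 and 34.0 CPM in Control. Both Isl1CKO libraries were higher, and the gap between the genotypes was wider than the gap within either. Means were 57.8 ± 8.64 CPM in Isl1CKO and 31.3 ± 3.83 CPM in Control (SD, n = 2 each). The log2 fold change was 0.89 (SE 0.50), with an unadjusted p of 0.0962 and an edgeR adjusted p of 0.878. It was 0.71 to 1.03 with 1 library left out, and the authors' deposited table gave 1.45 with an adjusted p of 0.000583. Per kb, Sct measured 41.9 CPM in Isl1CKO and 22.7 CPM in Control, a Control level above 48.5% of H3K27ac regions. A second region, 2170 bases upstream, overlapped between genotypes at 3.04 to 16.9 CPM in Isl1CKO and 4.63 to 12.6 CPM in Control.

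The H3K27ac regions assigned to Cck were 51366 and 63953 bases from its start and lay inside Trak1, the gene of a mitochondrial trafficking adaptor. The larger (chr9:121258673-121260807) held 27 and 48 counts in Isl1CKO, against 60 and 67 counts in Control, or 41.1 and 33.7 CPM in Isl1CKO and 46.3 and 36.7 CPM in Control. The genotypes overlapped there and in the other region, with log2 fold changes of -0.16 (SE 0.53) and 0.25 (SE 0.90).

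**Figure D3:**
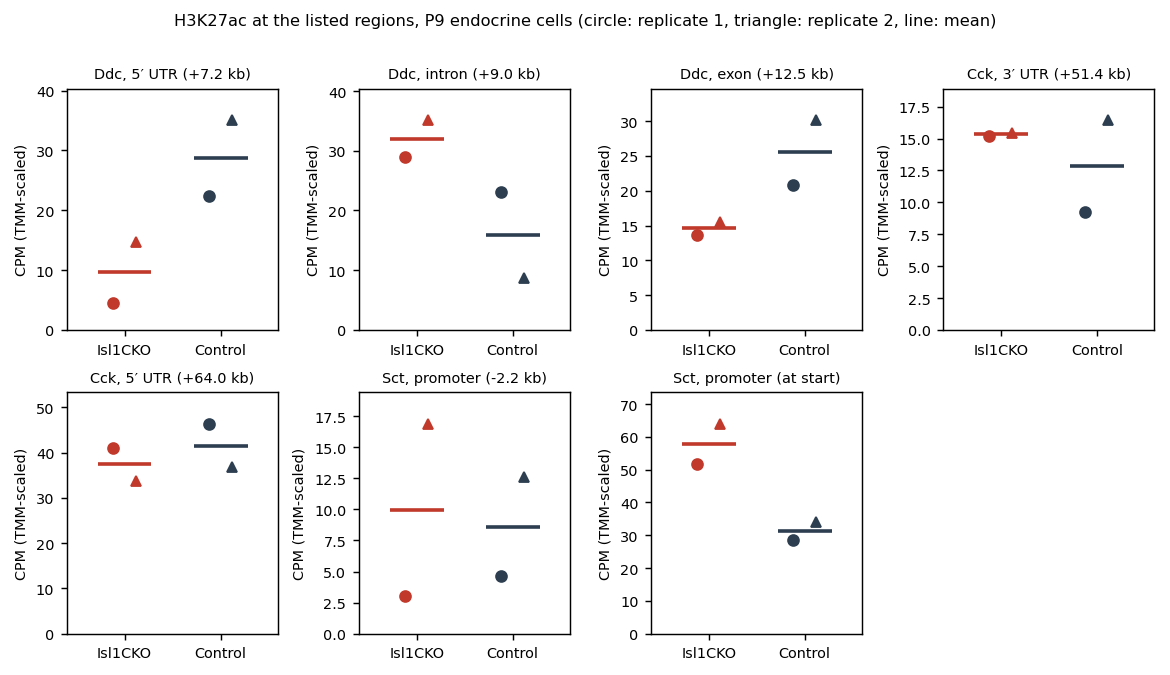
H3K27ac level (TMM-scaled CPM, y axis) of each library in the 7 member regions, with Isl1CKO in red on the left and Control in dark blue on the right. Circles are replicate 1, triangles replicate 2 and lines the mean of 2 libraries. The Sct start and the Ddc intron have both Isl1CKO points above both Control points, the Ddc inner start and exon have both below, and the other 3 regions overlap.

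**Figure D4:**
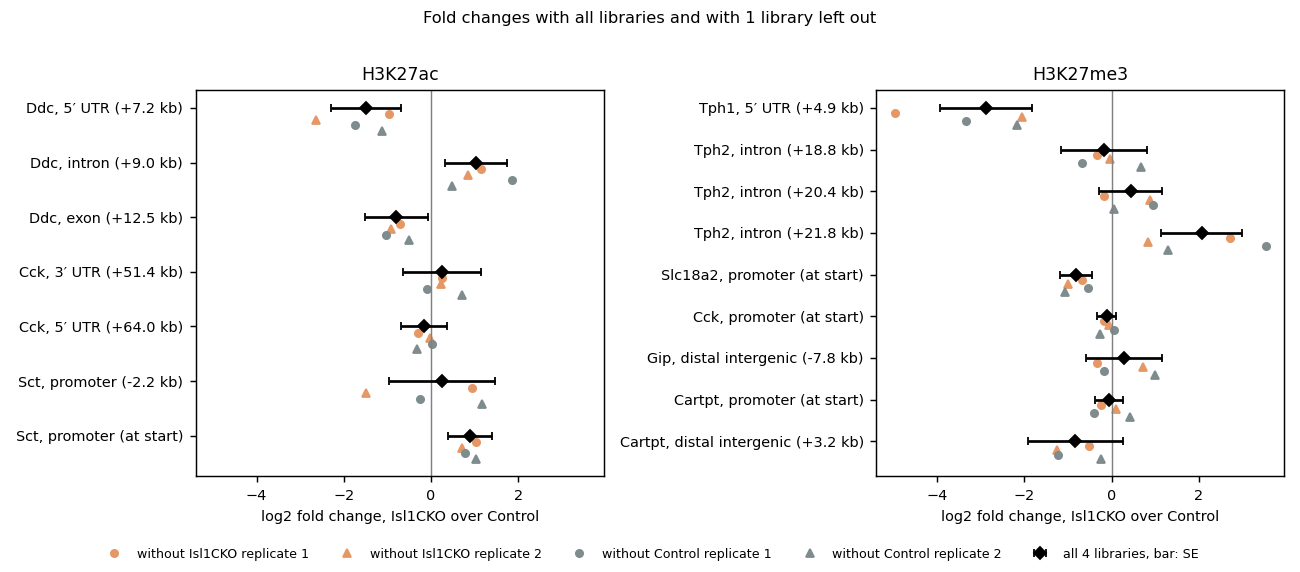
Log2 fold change of Isl1CKO over Control (x axis) for each member region (rows), from all 4 libraries (black diamonds, bars are the SE of the edgeR fit) and with 1 library left out (orange without an Isl1CKO library, grey without a Control library). With 1 library left out, Tph1 spans -4.97 to -2.06 for H3K27me3, and for H3K27ac the Sct start spans 0.71 to 1.03 and the Sct upstream region -1.50 to 1.17.

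ISL1 binding was described from the deposited value of each promoter window. For the members this was 6000 bases, with 2999 or 3000 bases before the gene start. The unit of this value is not given in the sources used here. Windows were listed for 8 members, all but Slc18a1 and Sct. At E14.5 the value was 2 for Cck, which 18.3% of all windows reached, 1 for Cartpt and 0 for the other 6, so 2 of 8 members had a value of at least 1, against 37.7% of all 22332 windows. At P9 it was 1 for Cck and 0 for the other 7, so 1 of 8 had a value of at least 1, against 8.86% of all windows. Cck was thus positive at both stages, which 4.67% of windows were. The totals over all windows differed between the stages (16668 at E14.5 and 2255 at P9, with 1 column each), so values are not compared across them. The highest window reached 133 at E14.5 and 8 at P9, and the member values were at the low end of this scale.

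The windows of Tph1 and Ddc end before their inner starts and before their listed histone regions, so no ISL1 value applies to those regions. Of the 8 members with a window, 3 (Slc18a2, Cck and Cartpt) had an H3K27me3 promoter region (13.8% of all genes with a window), 0 had an H3K27ac promoter region (38.6%) and 5 had neither (52.7%). Of all genes with an H3K27me3 promoter region, 56.0% had an E14.5 ISL1 value of at least 1 and 17.7% a P9 value of at least 1. Among the 3 such members these numbers were 2 and 1.

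The wider pathway was read through 7 further gene lists, each gene taken at its promoter region with the most counts, or otherwise at its region with the most counts. In none of these lists was a gene called, against a background of 0.0%, so counts below are of fitted signs, with values for the 2 members with the most counts. Genes of serotonin's cofactor, uptake and breakdown had H3K27ac at 12 of 16, with 6 higher and 6 lower in Isl1CKO and a median log2 fold change of 0.06. Qdpr, which regenerates the tetrahydrobiopterin cofactor of tryptophan hydroxylase, stood at -0.02 (SE 0.33), and Asmt, which makes melatonin, at -0.32 (SE 0.47). For H3K27me3, 3 of 16 were listed, 1 higher and 2 lower. Slc6a4, the serotonin reuptake transporter, measured 201 ± 15.2 CPM in Isl1CKO and 220 ± 6.00 CPM in Control (SD, n = 2 each), a log2 fold change of -0.13 (SE 0.23), and Ido1, which diverts tryptophan to kynurenine, stood at -1.01 (SE 1.24).

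The serotonin receptors were mostly under H3K27me3, with 12 of 14 marked, all at promoters, 6 higher and 6 lower, and a median of 0.01 against 0.05 over all regions. Htr1a stood at -0.12 (SE 0.23) and Htr1d at 0.21 (SE 0.30). H3K27ac was listed for 2 of 14, Htr1d at -0.48 (SE 0.71) and Htr6 at 1.50 (SE 1.05). The Htr6 region was annotated as intergenic, 15314 bases from the Htr6 start. Catecholamine and vesicular transport genes had H3K27me3 at 7 of 11, of which 6 were tested, 1 higher and 5 lower, with a median of -0.07. Slc18a3, the vesicular acetylcholine transporter of the same family as Slc18a2, stood at -0.21 (SE 0.14), and Slc17a6, a vesicular glutamate transporter, at -0.07 (SE 0.18). H3K27ac was listed for 4 of these 11 genes, 1 higher and 3 lower with a median of -0.62, among them Th (tyrosine hydroxylase) at -0.53 (SE 0.41) and Slc18b1 at 0.47 (SE 0.59). Of these 4 regions, 2 were at promoters. The Th region was in an intron, 27184 bases from the start. That of Slc18a3 (-1.68, SE 0.83) lay 34875 bases from its start, in Chat.

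Regulators of serotonergic and enteroendocrine cells had H3K27ac at 15 of 20, with 10 higher and 5 lower and a median of 0.24 against -0.03 over all regions. Pax6 stood at -0.10 (SE 0.26) and Nkx2-2 at 0.23 (SE 0.32), both homeodomain factors of endocrine cells. H3K27me3 was listed for 9 of 20, 1 higher and 8 lower with a median of -0.15, with Lmx1a, a factor of serotonin-producing gut cells, at -0.01 (SE 0.14). ISL1 values of at least 1 were present for 16 of 20 at E14.5, against 37.7% of all windows, and for 7 of 20 at P9, against 8.86%. Gata2, Ghr, Prlr and Stat5a had 0 at both stages, and the genes named next had the highest E14.5 values of the list. The value of Fev, an ETS factor of serotonergic neurons and endocrine progenitors, was 14 at E14.5 and 2 at P9, that of Nkx2-2 was 7 and 1, and that of Insm1 was 7 and 0. A high E14.5 share was not particular to these regulators. Receptors of the member peptides had E14.5 values of at least 1 at 6 of 7 windows, and peptide processing genes at 7 of 11. Shares were 5 of 9 for catecholamine and vesicular transport and 7 of 17 for other peptides. They were 5 of 14 for the serotonin cofactor list and 5 of 14 for the serotonin receptors.

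Other gut and islet peptides had H3K27me3 at 9 of 18, with 7 higher and 2 lower and a median of 0.19. Adcyap1 and Npy, the genes with the most counts, stood at 0.19 (SE 0.22) and 0.20 (SE 0.21). Their H3K27ac was listed for 6 of 18, 1 higher and 5 lower with a median of -0.79. Gal (galanin) stood at -0.36 (SE 0.58). The promoter of Pyy, a peptide hormone of gut and islet, measured 16.7 ± 2.16 CPM in Isl1CKO and 49.2 ± 36.3 CPM in Control (SD, n = 2 each), a log2 fold change of -1.53 (SE 0.67; edgeR adjusted p = 0.850). Receptors of the member peptides had H3K27me3 at 5 of 7, 4 higher and 1 lower with a median of 0.27, and Sctr, the secretin receptor gene, stood at 0.15 (SE 0.20) and Ntsr1, a neurotensin receptor gene, at 0.27 (SE 0.27). H3K27ac was listed for 3 of 7 and tested for 2, Sort1 at 0.13 (SE 0.46) and the Gip receptor gene Gipr at 0.12 (SE 0.64).

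Peptide processing and granule genes were the list in which every member had an assigned H3K27ac region, 11 of 11, and 9 of these were at promoters. The Scg2 region was intergenic, 38542 bases from its start. Of the 11, 8 were higher and 3 lower, with a median of 0.16. The granins Chgb and Chga stood at -0.14 (SE 0.33) and 0.00 (SE 0.43). H3K27me3 was listed for 2 of 11, the prohormone convertase gene Pcsk1 at -0.26 (SE 0.57) and Pcsk1n at 2.00 (SE 1.90).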

How the data were processed

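For both histone marks the authors deposited the raw count of every library in each region, with coordinates, annotation, their log2 fold change, likelihood ratio score, p-value and adjusted p-value. Every deposited region held at least 50 counts over the 4 libraries of its mark. They also deposited ISL1 values, whole numbers per promoter window treated here as a score, whose unit the headers do not state; the 2 E14.5 libraries share 1 column. Per the submitters' processing notes, Bowtie2 2.3.5.1, Picard 2.27.4, MACS2 2.2.6, ChIPseeker 1.38.0, edgeR 4.0.16 and GRCm39 were used. Chromosome numbers in the histone files had been given in alphabetical order of the names: 7.48% (H3K27ac) and 9.25% (H3K27me3) matched the ISL1 file as written, and 100% of 18449 and 10277 regions did after correction. Repeated rows (108 and 90) were kept once.

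Counts were tested with edgeR 4.0.16 in R 4.3.3 (TMM, quasi-likelihood test, Benjamini-Hochberg over all tested regions, called at an adjusted p below 0.05). The filter filterByExpr took out 1443 H3K27ac regions, leaving 30036, and 652 H3K27me3 regions, leaving 19434. The procedure was tested on simulated data. The floor of 3 counts is 1.64 to 4.56 CPM for H3K27ac and 1.28 to 2.64 CPM for H3K27me3, and covers counting error only. Alternatives were DESeq2 1.42.0, RLE and total-count scaling, no filter, a replicate block, each library left out and the authors' table. Promoter windows were taken from RefSeq (GRCm38.p6). Groups came from the sample labels. All regions assigned to members are accounted for: counts or CPM of every library are given for the promoter region with the most counts, or the highest region where there was none, and for regions whose genotypes do not overlap. Of the genes named for the further lists, 1 is not reported here. The members and lists were chosen with earlier results of these data known.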

Additional observations from a re-analysis of the deposited data

How the results depend on the processing

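Of the 16 member regions, all kept their direction under RLE scaling, no filter, DESeq2 and the replicate block. They also kept their side of the threshold, except that DESeq2 gave no adjusted p for the Sct region 2170 bases upstream. Same-numbered libraries did not deviate together (correlation 0.0504 for H3K27ac and -0.0142 for H3K27me3). With 2 libraries a genotype this cannot show whether the samples were paired. With the replicate block 0 regions of either mark were called, as without it. Regions called over the whole table numbered 29 (H3K27ac, 21 higher) and 123 (H3K27me3, 3 higher) in DESeq2, and 11662 (8750 higher) and 7791 (1841 higher) in the authors' deposited table. Leaving out 1 library gave 0 to 900 called H3K27ac regions (900 without Control replicate 1, 15 without Control replicate 2) and 0 called H3K27me3 regions, and 0 member regions were called in any of these fits, in which the lone library is assumed to vary like the other genotype. The authors' deposited table called 2 H3K27ac and 4 H3K27me3 member regions, the fourth being the Cartpt region 3218 bases from the start (-1.34, against -0.83 here).

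Signs reversed for regions whose genotypes overlapped. Total-count scaling, which moved the H3K27me3 median over all regions by 0.11, turned Cck (0.0054) and the Cartpt promoter (0.047). In the authors' table the Cck region at 63953 bases was 0.38, the Tph2 region at 20402 bases -0.084 and Gip -0.23. Leaving out 1 library gave -0.10 to 0.72 and -0.33 to 0.014 for the H3K27ac regions of Cck at 51366 and 63953 bases, and -1.50 to 1.17 for the upstream Sct region (-0.25 without Control replicate 1). For H3K27me3 it gave -0.69 to 0.68 and -0.18 to 0.95 for the Tph2 regions at 18770 and 20402 bases, -0.27 to 0.057 for Cck, -0.34 to 1.00 for Gip (-0.17 without Control replicate 1), and -0.41 to 0.42 for the Cartpt promoter (0.10 without Isl1CKO replicate 2). The causes were not tested. With an ISL1 value of at least 5, 0 members were positive at either stage, and above the median of positive windows 1 was at E14.5 and 0 at P9; counting the highest window per gene changed neither count. Low counts limit the Tph1, Tph2 and Ddc regions, and ISL1 values of 1 or 2 carry no error estimate.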

Other observations

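The Ddc gene also contained 7 H3K27ac regions that the files list under its neighbours, 4 under Fignl1 and 3 under 1700042O10Rik. Their log2 fold changes ranged from -2.31 to 1.51, so differences of both signs were measured along this gene, and 0 were called. The region listed under 1700042O10Rik at chr11:11794035-11795213 held 24 and 35 counts in Isl1CKO, against 14 and 19 counts in Control, a log2 fold change of 1.51 (SE 0.74; edgeR adjusted p = 0.862). The region listed under Fignl1 at chr11:11778240-11778792 held 3 and 6 counts in Isl1CKO, against 12 and 63 counts in Control, a log2 fold change of -2.31 (SE 1.05; edgeR adjusted p = 0.850). In the second region most Control counts came from Control replicate 2, the library that stood apart. Inside Gip, an H3K27me3 region listed under Gm24949 stood at -0.24 (SE 1.37). Past the 3′ end of Sct, an H3K27ac region listed under Cdhr5 (chr7:140857266-140857989) stood at 0.66 (SE 0.86).

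In the wider lists, 3 H3K27ac regions were picked out after their values were seen. A region assigned to Scg2, a granin gene, 38542 bases from its start, held 0 and 7 counts in Isl1CKO, against 25 and 66 counts in Control (edgeR adjusted p = 0.846). An intron region of Lmx1a, 65433 bases from its start, held 2 and 5 counts in Isl1CKO, against 17 and 72 counts in Control (edgeR adjusted p = 0.846). In both regions Isl1CKO replicate 1 was below the floor of 3 counts and most Control counts came from Control replicate 2, the library that stood apart. The promoter of Pcsk1, which cleaves prohormones, measured 15.2 and 16.9 CPM in Isl1CKO, against 47.9 and 40.01 CPM in Control, a log2 fold change of -1.44 (SE 0.61; edgeR adjusted p = 0.850).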
